A study of Homo sapiens with 2 samples.

Results

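CYP24A1, the mitochondrial 24-hydroxylase that inactivates vitamin D, is described here with 7 other genes of vitamin D and retinoid turnover. They are CYP27B1, CYP26A1, CYP26B1, DHRS3, LRAT, RBP4, and CRABP2. CYP24A1 was chosen by its large fall in signal between these same 2 arrays, so that its difference is a description and supports nothing further. The other 7 genes were selected from the same pathways with results of the arrays known. The 8 genes were found through the RefSeq transcript of each probe, among 41127 genes and unnamed transcripts with a usable probe. They have 10 probes, 8 of which were well above background (the flag of the scanning software for a spot clearly brighter than its surroundings) on both arrays.

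HepG2, an established human hepatoma line that keeps many hepatocyte functions, was profiled on 1-colour (Cy3) Agilent human expression arrays. One group was given the vehicle dimethyl sulfoxide (DMSO) for 24 h, and the other hawk tea extract (HTE) dissolved in DMSO for 24 h. The labels give a dose of 200 µg/mL HTE, whereas the study's text gives a higher dose, and the dose was not settled here. There was 1 array per group, from 1 cell line. No test between the groups was possible, no p value is given, and HTE cannot be told apart from any other difference between these cultures or hybridisations.

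Vitamin D is hydroxylated in the liver, chiefly by CYP2R1, and then to its active hormone calcitriol by CYP27B1, which acts mainly in the kidney. Calcitriol binds the vitamin D receptor (VDR), which pairs with a retinoid X receptor on DNA, and CYP24A1 is the classic gene that this pair induces, closing a feedback loop. Retinoids follow a parallel route. Retinol travels in blood on RBP4, is stored as esters by LRAT, and is oxidised to retinal and on to retinoic acid, while DHRS3 reduces retinal back to retinol. CRABP2 carries retinoic acid to its nuclear receptors, and CYP26A1 and CYP26B1 destroy it. The retinoic acid receptors induce CYP26A1, DHRS3, and LRAT in turn, as the vitamin D receptor does CYP24A1.

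A repeat of the kind that retinoic acid receptors bind occurs in the promoter of CYP26A1. This promoter is shown with that of RARB, a retinoic acid receptor whose promoter holds the textbook retinoic acid response element. Both sequences are from RefSeq (GRCh38.p14), run 5′ to 3′ on the gene's strand and end at the base before the transcription start. The first is chr10:93073643-93073892 and the second is chr3:25428163-25428262, both on the plus strand. The capitals mark a direct repeat of the receptor-binding hexamer with 5 bases between its copies. A copy could read AGGTCA, or with other letters AGTTCA, or else as GGGTCA, or as the related GGTTCA.
CYP26A1: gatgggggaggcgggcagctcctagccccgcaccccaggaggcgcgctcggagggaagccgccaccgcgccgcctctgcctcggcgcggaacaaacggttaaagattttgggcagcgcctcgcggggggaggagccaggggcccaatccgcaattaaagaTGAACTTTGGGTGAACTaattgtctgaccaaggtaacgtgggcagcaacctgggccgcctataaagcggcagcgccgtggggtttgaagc
RARB: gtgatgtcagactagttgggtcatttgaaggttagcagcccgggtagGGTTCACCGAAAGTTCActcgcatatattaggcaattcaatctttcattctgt

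In CYP26A1 the repeat lies on the other strand, where it reads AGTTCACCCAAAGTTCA, from 90 to 74 bases before the start (chr10:93073803-93073819). In RARB it lies on the gene's strand, from 53 to 37 bases before the start. Searched on both strands, a repeat with this spacing was found in 31 of 35116 promoter windows of 300 bases (0.0883%), and in 1 of the 6 listed genes with a window, which had 11 windows between them. The 6 genes were CYP26A1, CYP26B1, DHRS3, LRAT, RBP4, and CRABP2, and the promoters of CYP24A1 and CYP27B1 were not searched here. DHRS3 and LRAT, also named above as induced by retinoic acid receptors, had no repeat with this spacing in their windows. No window of these 6 genes held the same repeat with 3 bases between the copies, the spacing that the vitamin D receptor favours, or with 2. These spacings occurred in 0.074% and 0.0399% of all windows. A match is a description of the letters and does not show that a receptor was bound in these cells.

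CYP24A1 was much lower on the HTE array at both of its probes, which target the same transcript. At the brighter probe the processed signal was 13872 with DMSO and 1710.3 with HTE, with errors of 10.0% and 10.1% as estimated by the scanning software. Relative to the 75th percentile of each array, the log2 level was 1.79 with DMSO and -1.06 with HTE, a log2 ratio of -2.85 ± 0.20 (software error of the spots), or 7.20-fold lower. At the dimmer probe the signal was 1453 with DMSO and 213 with HTE, a log2 ratio of -2.60 ± 0.25, or 6.07-fold lower. The probes thus gave the same direction and differed by 0.25 on the log2 scale. The median difference was 0.22 among the 3053 genes for which exactly 2 probes passed the background flag on each array. The error of the spots leaves out the variation between cultures, which was not measured. Fewer cells that express the gene and less of its RNA in each cell cannot be told apart.

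**Figure D1:**
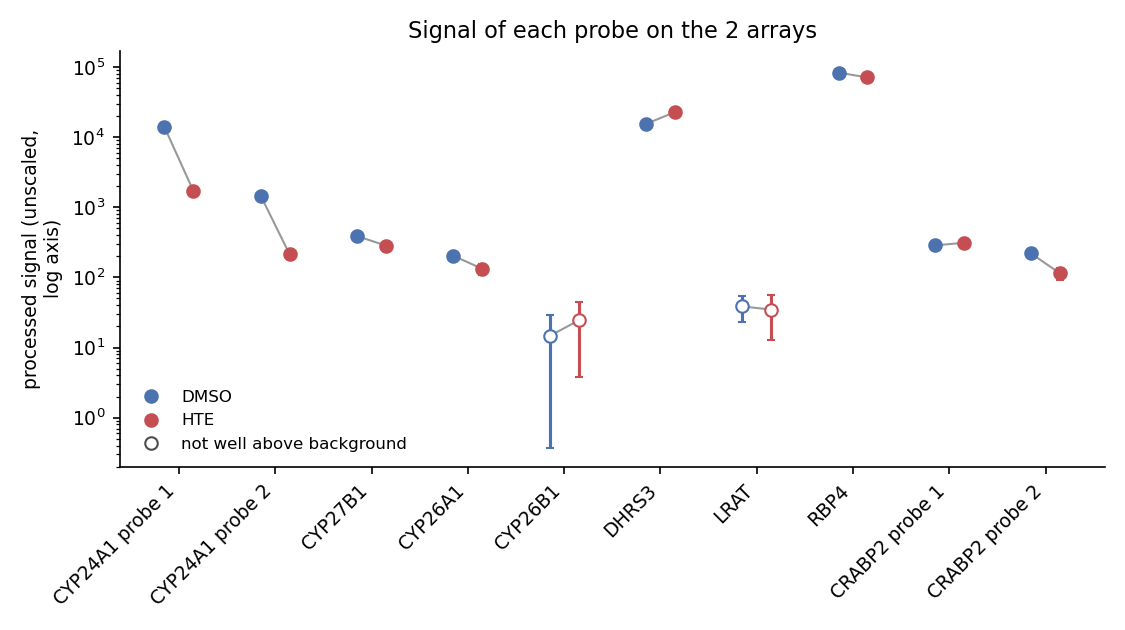
Processed signal of the 10 probes on the DMSO array (blue) and the HTE array (red), on a log axis and not scaled between arrays. Bars are the error estimate of the scanning software for 1 spot, and open points are not well above background. Both CYP24A1 probes drop from DMSO to HTE (13872 to 1710.3 and 1453 to 213), and the lines of the other genes are far flatter.

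A probe passed the background flag on 1 or both arrays for 23752 genes and transcripts. Of these, 720 (3.03%) had a signal lower by 2-fold or more with HTE, 1248 (5.25%) had one higher by that much, and 1968 (8.29%) lay past 2-fold in either direction. Of the 8 listed genes, 6 could be measured, and 1 of these, CYP24A1 itself, was past 2-fold. As CYP24A1 was picked for this difference, its count is not evidence about the group. Over the other 5 measured genes, CRABP2 at its brighter probe included, the median log2 ratio was -0.06, beside 0 over all genes. In the order of log2 ratios, CYP24A1 stood the fifth from the lowest of the 14636 named genes whose probe passed the flag with DMSO and with HTE. The genes next to it on the lower side were HOXD1 (-2.89), SLC6A14 (-3.28), and DKK4 (-3.31), a secreted antagonist of Wnt signalling. On the other side stood MKI67 (-2.27), a marker of proliferating cells, HAMP (-2.25), which encodes the iron hormone hepcidin, and LINC00298 (-2.25). This order rests on 1 ratio per gene from 1 pair of arrays.

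**Figure D2:**
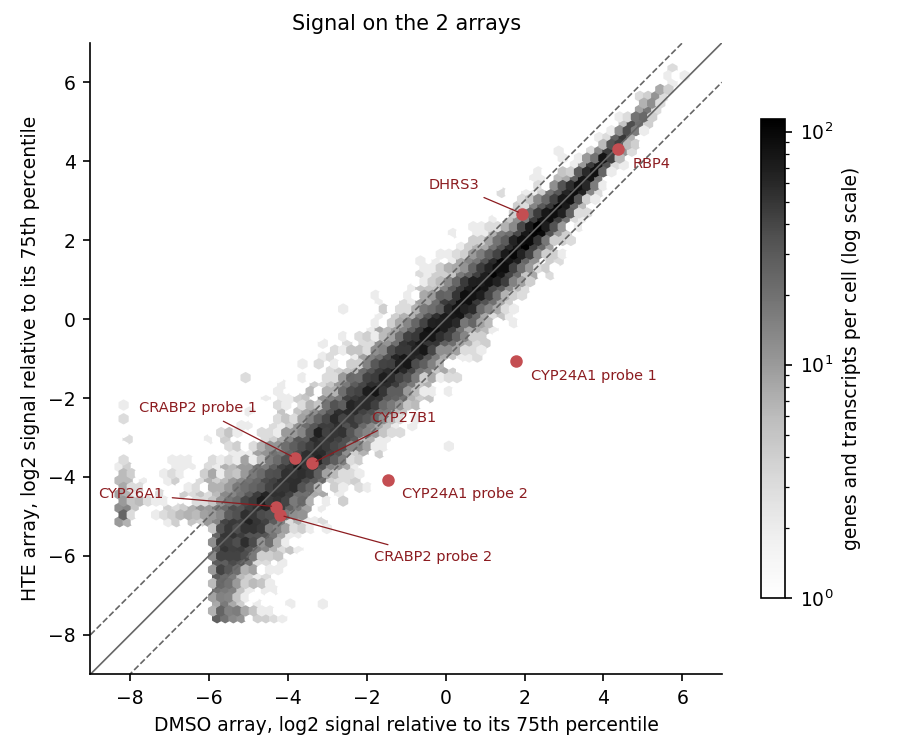
Log2 signal of each gene or transcript on the HTE array against the DMSO array, each relative to the 75th percentile of its array. The solid line marks equal signal, the dashed lines 2-fold, and grey shading the number of genes. Both probes of CYP24A1 lie well below the lower dashed line, and the other 6 probes of measured listed genes lie between the dashed lines.

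CYP27B1, the enzyme that makes calcitriol, had a signal of 388 with DMSO and 284 with HTE, a log2 ratio of -0.28 ± 0.23, a difference close to the error of its spots. Somewhat larger ratios, in the upward direction, were seen at the receptor and the first hydroxylase. VDR, the receptor itself, was spotted 10 times on each array and had a mean signal of 710 with DMSO and 928 with HTE, with a log2 ratio of 0.56 ± 0.07 (SD over the 10 spots). VDR was therefore 1.47-fold higher and short of the 2-fold cutoff, and its SD leaves out variation between cultures. CYP2R1, the main 25-hydroxylase of vitamin D, had signals of 2898 and 3881 and a log2 ratio of 0.59. The rises of VDR and CYP2R1 were smaller than the shift of -1.34 that scaling to the E1A spike-in RNA brings. CYP27A1, which can also 25-hydroxylate vitamin D, had a ratio of -0.03.

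A list of 20 further genes of vitamin D transport, activation, receptor function, and electron supply was examined beside them. Of its members 16 could be measured, 8 of them higher on the HTE array and 7 lower, with a median log2 ratio of 0.07. The only gene past 2-fold was DHCR7, at 1.00, beside 8.29% of all genes past 2-fold in either direction. DHCR7 draws the vitamin D precursor 7-dehydrocholesterol into cholesterol. Its signal was 32013 with DMSO and 56992 with HTE, but it fell short of 2-fold with quantile normalization (0.99), scaling to the median (0.92), or no scaling (0.83), and went the other way with spike-in scaling (-0.33). Mitochondrial P450 enzymes such as CYP24A1 take electrons from ferredoxin. FDX1 (-0.27) and the ferredoxin reductase FDXR (-0.23) were both slightly lower. The receptor partners RXRA and RXRB had ratios of -0.11 and 0.43, and the xenobiotic receptor PXR (NR1I2) had one of 0.63. The rises of RXRB and PXR were also smaller than the spike-in shift of -1.34. CYP3A4, RXRG, and CUBN were not well above background on either array. GC, the plasma vitamin D binding protein, was well above background with DMSO alone, at a signal of 85.9, too dim for a bound on its fold change.

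Other genes known to respond to calcitriol in various tissues went in both directions. Of 21 such genes 11 could be measured, 4 of them higher, 6 lower, and 1 without a measurable difference, and their median log2 ratio was -0.03. Over all genes 10849 were higher and 11631 lower. Past 2-fold, 1 of the 11 was higher and 1 lower, beside 5.25% and 3.03% of all genes. CD14, a co-receptor for bacterial lipopolysaccharide, was 3.42-fold lower, with a signal of 2647 with DMSO and 688 with HTE (log2 ratio of -1.77). IGFBP3, a carrier of insulin-like growth factors, was 2.49-fold higher, with a mean signal of 173 with DMSO and 382 with HTE over its 10 spots (log2 ratio of 1.31 ± 0.21, SD). The IGFBP3 ratio was 0.99 with normexp background correction and -0.02 with spike-in scaling. CDKN1A, a cell cycle inhibitor, had a ratio of 0.83. TRPV6, S100G, and CALB1, which take part in calcium transport, were not well above background on either array. Nor was CAMP, which encodes the antimicrobial peptide cathelicidin.

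**Figure D3:**
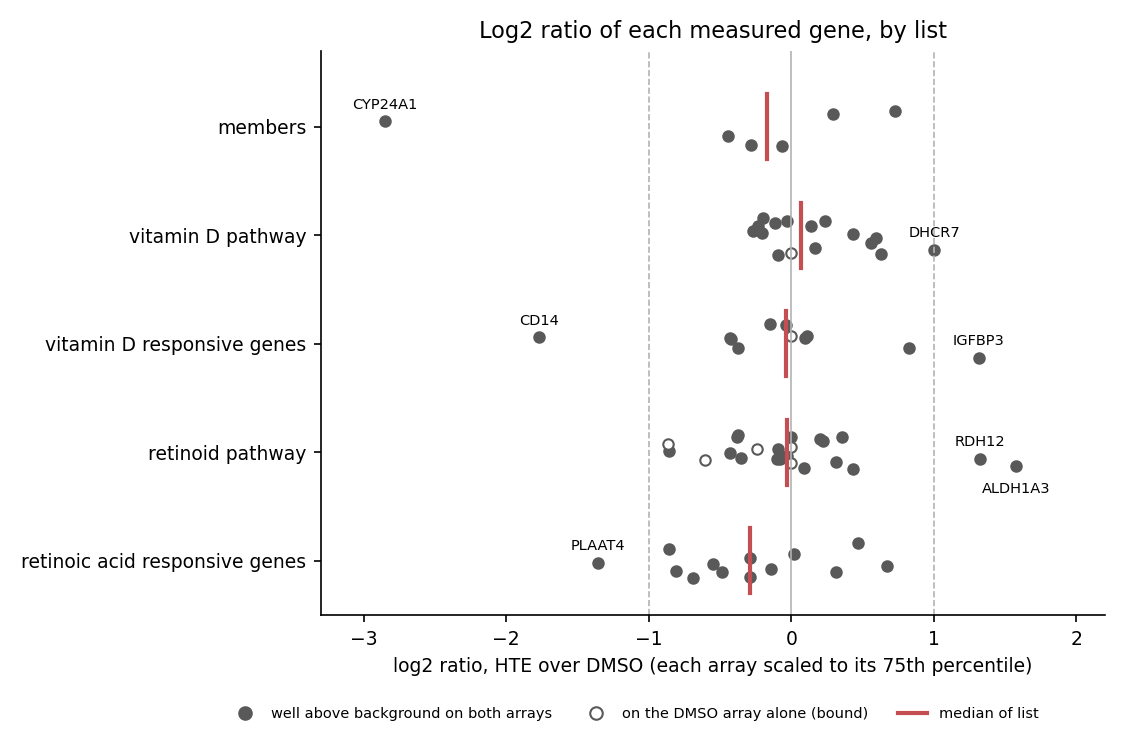
Log2 ratio of HTE over DMSO for each gene measured in the 8 listed genes and in 4 gene lists, after scaling each array to its 75th percentile. Dashed lines mark 2-fold, open points are genes that passed the background flag with DMSO alone, and red bars are list medians. CYP24A1 stands alone at -2.85 in its row, and the medians of the lists lie between -0.29 and 0.07.

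Among the retinoid genes, DHRS3 had the largest ratio of the listed genes in the upward direction. This retinal reductase had a signal of 15422 with DMSO and 22715.5 with HTE, a log2 ratio of 0.73 ± 0.20, or 1.66-fold higher. It was higher under each setting run except scaling to the spike-in RNA, which gave -0.61. The enzyme that destroys retinoic acid, CYP26A1, was dim and had a signal of 203 with DMSO and 133 with HTE, a log2 ratio of -0.44 ± 0.32. With spike-in scaling the ratio of CYP26A1 was -1.78, and under the other settings it lay short of 2-fold and below 0. CYP26B1, the related hydroxylase, and LRAT, which stores retinol, did not pass the background flag on either array. Their signals were 14.6 with DMSO and 24.3 with HTE for CYP26B1, and 38.6 and 34.7 for LRAT. The software's additive error was 14.3 signal units on the DMSO array and 20.2 on the HTE array, so no ratio is given for these genes.

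RBP4, the plasma carrier of retinol and a typical secretory product of hepatocytes, was nearly level. Its signal was 83339 with DMSO and 70915 with HTE, a log2 ratio of -0.06 ± 0.20, with values between -0.23 without scaling and 0.04 with normexp background correction. Spike-in scaling put it at -1.40. TTR, which holds RBP4 in plasma, had a ratio of 0.09. The probes of CRABP2 went in opposite directions. The brighter probe had signals of 286 with DMSO and 311 with HTE (log2 ratio of 0.29 ± 0.23), and the other, designed on another transcript of the gene, had signals of 219 and 114 (-0.77 ± 0.34). They differed by 1.06, more than the difference seen in 96.8% of the genes with 2 probes, and CRABP2 is left without a direction.

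The wider retinoid list held 33 further genes, of which 23 could be measured, 8 of them higher on the HTE array and 13 lower, with a median log2 ratio of -0.03. Of these, 2 were past 2-fold, both higher, beside 8.29% of all genes past 2-fold in either direction. ALDH1A3, which oxidises retinal to retinoic acid, was 2.98-fold higher (log2 ratio of 1.58) from a dim signal of 124 with DMSO to 328 with HTE, and its ratio was 1.04 with normexp background correction and 0.24 with spike-in scaling. RDH12, a retinal reductase best known from photoreceptors, was 2.51-fold higher (log2 ratio of 1.33), with signals of 1810.2 and 4033, although with spike-in scaling it came to -0.01. ALDH1A1, the retinal dehydrogenase that is abundant in liver, had a ratio of -0.03, and ALDH1A2 was not well above background. Of the enzymes that oxidise retinol or reduce retinal, RDH10 (0.36), RDH11 (0.43), and RDH14 (0.22) were slightly higher, and RDH13 (-0.43), DHRS4 (-0.38), ADH4 (-0.35), and RDH5 (-0.08) slightly lower. STRA6, the membrane receptor that takes up RBP4-bound retinol, had ratios of -0.86 and -1.05 at its probes, and its signal at the brighter one was 575 with DMSO and 282 with HTE.

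Of the retinoic acid receptors, RARA had a log2 ratio of -0.003 at its brighter probe and -0.77 at its dimmer one. RARG was well above background with DMSO alone (195.7, against 95.6 with HTE), and the ratio of these measured signals was 1.82-fold lower. RARB, whose promoter element is printed above, did not pass the background flag (30.8 and 20.6). Among 20 genes that respond to retinoic acid, 5 of which are also in the retinoid list (RARB and STRA6 among them), 13 could be measured. Of these 4 were higher and 9 lower, with a median log2 ratio of -0.29, while over all genes 10849 were higher and 11631 lower, with a median of 0. PLAAT4, a retinoic acid-induced phospholipase, was the only one of the 13 past 2-fold, beside 3.03% of all genes that far lower, and was 2.57-fold lower with signals of 788 and 273 (log2 ratio of -1.36). Lower ratios short of 2-fold were seen for the homeobox genes MEIS1 (-0.81), CDX1 (-0.69), and MEIS2 (-0.55) and for the transglutaminase TGM2 (-0.49). GBX2 (0.67) and PDK4 (0.47) went the other way.

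The ratios depended on how the arrays were put on one scale. The 75th percentile of the signal was 4020.0 for DMSO and 3570.3 for HTE, and 60.6% and 56.6% of spots were well above background. Without scaling the median ratio fell by 0.17 and the counts were 883 higher and 1209 lower. The E1A spike-in RNA was brighter on the HTE array, and scaling to it moved the median ratio by -1.34 and gave 121 higher and 17972 lower genes. CYP24A1 was past 2-fold under every setting run, between -2.72 and -4.18.

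**Figure D4:**
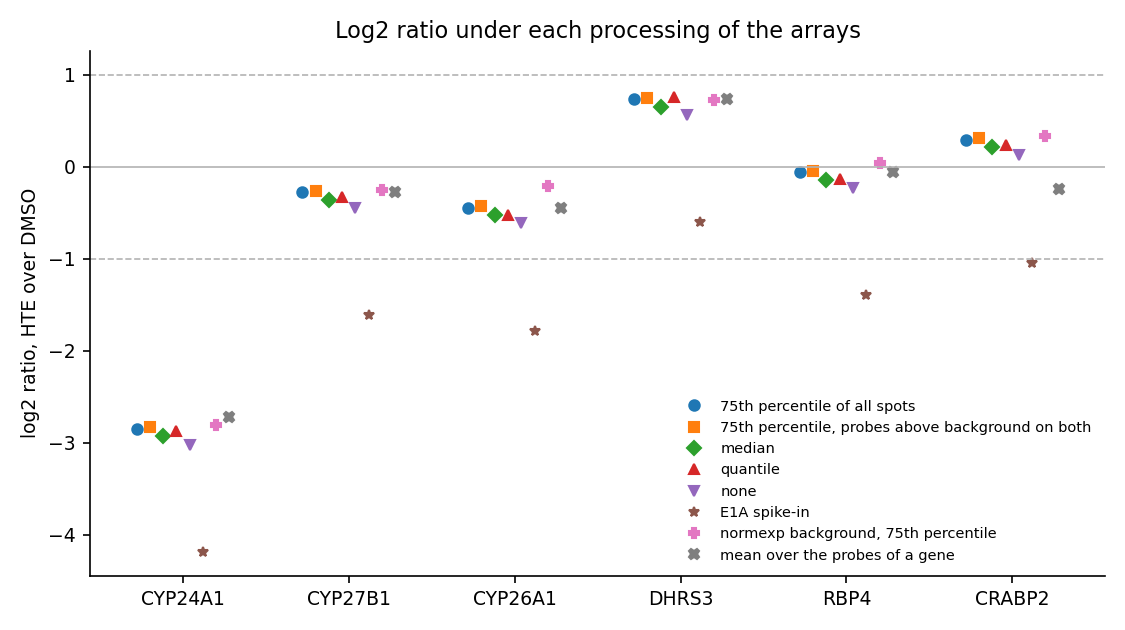
Log2 ratio of HTE over DMSO for the 6 listed genes that could be measured, under 8 ways of processing the arrays. Dashed lines mark 2-fold. CYP24A1 lies at -2.72 or lower throughout, and spike-in scaling (stars) lies 1.34 below the 75th percentile scaling for every gene.

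The cell type on the labels was checked against its markers. All 10 hepatocyte markers examined, among them ALB, APOA1, and HNF4A, were well above background on both, and their log2 ratios lay between -0.36 and 0.21 before the shift of -1.34 that spike-in scaling brings. Of 10 markers of leukocytes, endothelium, and fibroblasts 7 were measured, 3 of them higher with HTE, 3 lower, and 1 without a measurable difference, while CD3E, CDH5, and DCN were not well above background. The summed signal of these 10 was 8391 with DMSO and 7799 with HTE. PECAM1, an endothelial adhesion molecule, was 3.52-fold lower (log2 ratio of -1.82), as the one marker past 2-fold, beside 3.03% of all genes that far lower. The part of such differences in the CYP24A1 ratio was not tested.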

How the data were processed

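The authors deposited 1 Agilent Feature Extraction file per array (version 11.5.1.1 in the file header, 10.7 in the labels). The intensity values were made by the authors with this software, which subtracted the background from each spot and removed spatial trends before the files were deposited, put a surrogate in place of the lowest values, and did not scale between arrays. The arrays were designed on another genome build than the gene table, and probes carry no coordinates here.

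Control spots and outlier spots (440 and 459) were left out, log2 of the signal was taken, the 75th percentile of each array was subtracted, and replicate spots were averaged. Probes were used if a share of 0.5 or more of their spots passed the software's background flag with DMSO or with HTE. On 1 array alone it gave a bound against the higher of its own signal and the lowest signal well above background, and a bound under 1-fold counted as no difference. RefSeq accessions named 28146 of 50532 probes through the GRCh38.p14 table. The brightest probe stood for a gene. The cutoff of 2-fold is that of the study's methods. FDX2, DHRS9, and POR had no probe matched to them. The median SD of the log2 ratio over replicate spots was 0.051 (688 probes). The number of arrays limits the precision.

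The spike-in scaling used the median ratio of 280 E1A spots that passed this flag on each array. The normexp correction (offset 50, limma 3.58.1 in R 4.3.3) was run on the median signal of each spot. Python 3.11.15 with pandas 2.3.3 was used otherwise, and the code was tested on simulated data. All genes and lists were chosen with earlier results of these data known. The genes named are the 8 listed genes at every probe, those in the lists past 2-fold, the extremes of each list, the neighbours of CYP24A1 in log2 ratio, and further genes of the lists chosen for their role after their values were seen.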

Additional observations from a re-analysis of the deposited data

How the results depend on the processing

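The direction of CYP24A1 and its place past 2-fold held under all 11 alternatives. The log2 ratio was -2.72 with the mean over its probes, -2.93 with scaling to the median, -3.02 without scaling, and -4.18 with spike-in scaling. The other settings moved it by less than the SD over replicate spots. Among the listed genes 1 was past 2-fold, which became 2 at a 1.5-fold cutoff and 5 with spike-in scaling. Vitamin D pathway genes past 2-fold numbered 0 without scaling, with quantile normalization, or with scaling to the median, 2 when dim probes kept their measured value, 3 at 1.5-fold, and 11 with spike-in scaling. For the retinoid pathway the numbers were 4 without scaling, 5 at 1.5-fold, and 17 with spike-in scaling. Over all genes, higher and lower counts were 2953 and 2505 at 1.5-fold, 2297 and 1270 with no filter on dim probes, 825 and 468 with normexp, 883 and 1209 without scaling, and 121 and 17972 with spike-in scaling, and 1320 were lower when dim probes kept their measured value. The cause was not tested. CRABP2 took a ratio of -0.24 as the mean of its probes. Dim probes limit CYP26A1, CYP26B1, and LRAT. Across the 20852 probes above background on neither array the median signal was 14.8 and 20.3, a scaled difference of 0.66. No paired analysis was possible because each group has a single array.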

Other observations

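Other mitochondrial and sterol P450 enzymes were looked at beside CYP24A1. Of 12 such genes 6 could be measured, and their median log2 ratio was -0.07. Of the 6, 1 was past 2-fold, beside 8.29% of all genes past 2-fold in either direction. CYP8B1, the 12-alpha-hydroxylase of bile acid synthesis, was well above background with DMSO alone, at a signal of 235, against 97.9 with HTE. The ratio of these measured signals was 2.14-fold lower. With normexp background correction its ratio was -0.51. CYP51A1, the lanosterol demethylase of cholesterol synthesis, was the highest of them, with signals of 29982 and 44013 and a log2 ratio of 0.73. CYP27C1, a mitochondrial enzyme that desaturates retinol in skin, had signals of 207 and 247 and a ratio of 0.42. CYP7A1, CYP7B1, CYP39A1, CYP46A1, CYP11B1, and CYP11B2 were not well above background on either array.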
